A study of Homo sapiens with 32 samples.

Results

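Ribosome footprints of human RPE-1 cells after 10 h of serum were compared with those of the same line after starvation alone. RPE-1 is an immortalised, wild-type line derived from human retinal pigment epithelium. All cells had been kept without serum for 18 h, and serum was then added for 0, 5, 10 or 15 h. The comparison takes in 8 of the 32 libraries of the series, which are the 4 biological replicates of ribosome-protected RNA fragments at 10 h and the 4 at 0 h. They were chosen by their labels alone. The other 24 libraries are the footprints at 5 h and 15 h and total RNA, depleted of ribosomal RNA, at all 4 times. No library was made from unstimulated cells collected at 10 h, so the effect of serum and that of 10 more hours in culture cannot be told apart.

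Without serum, many cultured cells leave the division cycle and rest in a reversible state called quiescence. When serum returns, growth factors switch on early genes, the growth kinase mTORC1 is reactivated, cyclin D and cyclin E kinases release E2F transcription factors from the RB family, and the cells prepare to copy their DNA. Ribosome profiling sequences the stretches of mRNA that ribosomes protect from nuclease, so the footprints of a gene depend on how much of its mRNA there is and on how many ribosomes sit on each copy. Messenger RNAs of ribosomal proteins and elongation factors begin with a terminal oligopyrimidine (TOP) tract, a cytosine followed by a run of pyrimidines, which makes their translation strongly dependent on mTORC1.

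The 4 starved footprint libraries held 2851423 to 5235948 counts and the 4 libraries at 10 h held 6307852 to 9604881, while the RNA libraries of these times held 632023 to 1107470. Footprint levels below are CPM, counts scaled to a common library size with TMM, which sets the bulk of genes equal between libraries, so each change is relative to the other genes. In bulk libraries fewer or more cells expressing a gene and less or more of it per cell cannot be told apart. Changes are log2 ratios of 10 h to 0 h with standard errors (SE), from an edgeR quasi-likelihood fit over the 16 footprint libraries, and n is 4 libraries per group throughout. A gene was called when its Benjamini-Hochberg adjusted p, taken over the whole table of tested genes, was under 0.05, and "rose" and "fell" are used of called genes alone. Log2 CPM of libraries within a time correlated at r = 0.988 to 0.996 over 8024 genes, and libraries of different times at 0.765 to 0.798. Of 15 markers of retinal pigment epithelium, 9 had enough footprints to be tested and RPE65, TYR, DCT and TTR had at most 1 count over the 4 starved libraries. Enough footprints to be tested were found for 1 of 10 blood markers (CD68), 2 of 5 endothelial markers (KDR and TEK, neither called), 2 of 6 epithelial markers (CLDN1 and OCLN, both lower at 10 h) and 4 of 6 fibroblast markers (PDGFRA, PDGFRB, THY1 and FAP). Of the untested blood, endothelial and epithelial markers, VWF had 14 counts and CD14 had 10 over the 4 starved libraries, and PTPRC, CD3E, PECAM1, CDH5, CDH1 and EPCAM had at most 9 counts in either group.

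Footprints of most genes differed between 10 h of serum and starved cells. Of 10959 genes tested, 8597 were called (78.4%), with 4322 higher (39.4%) and 4275 lower (39.0%), and the median change over all genes tested was -0.02. Counts of list members that rose or fell at 10 h against 0 h are to be read beside these shares throughout. The estimate was beyond 4-fold upward in 586 genes and downward in 502, and beyond 16-fold upward in 66 and downward in 55. Tested against a minimum change of 1.5-fold (edgeR glmTreat), 4503 genes were called (41.1%), of which 2308 were higher (21.1%) and 2195 lower (20%). In 7886 genes (72.0%) the 4 libraries at 10 h did not overlap the 4 starved ones. The split depended on the scaling. Upper-quartile scaling gave 3512 genes higher and 5245 lower with a median change of -0.20, and total-count scaling gave 3123 and 5739 with a median of -0.30. Footprints also became concentrated on fewer genes, with 50% of all footprints falling on 615 to 644 genes in the starved libraries and on 522 to 536 genes at 10 h.

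The mRNA change at 10 h was measured in the RNA libraries, where 3929 of 8775 genes were called (44.8%), 2046 of them higher and 1883 lower. Among the 8736 genes tested in both assays, 3893 rose in footprints. Of these, 2000 (51.4%) also rose in RNA, 1812 (46.5%) were not called in RNA and 81 (2.1%) fell in RNA. Of the 3139 genes that fell in footprints, 1669 (53.2%) fell in RNA, 1469 (46.8%) were not called and 1 rose. RNA libraries were several times shallower than footprint libraries, with a biological coefficient of variation of 0.185 against 0.0547, so a gene not called in RNA is not shown to be constant there. Translational efficiency (TE) is the footprint change minus the RNA change, tested as an interaction in 1 edgeR fit over all 32 libraries. It was called in 632 of 8736 genes (7.23%), higher in 475 (5.44%) and lower in 157 (1.8%). Total-count scaling gave 375 higher and 337 lower, and the fit with the replicate number as a block 670 and 348.

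**Figure D1:**
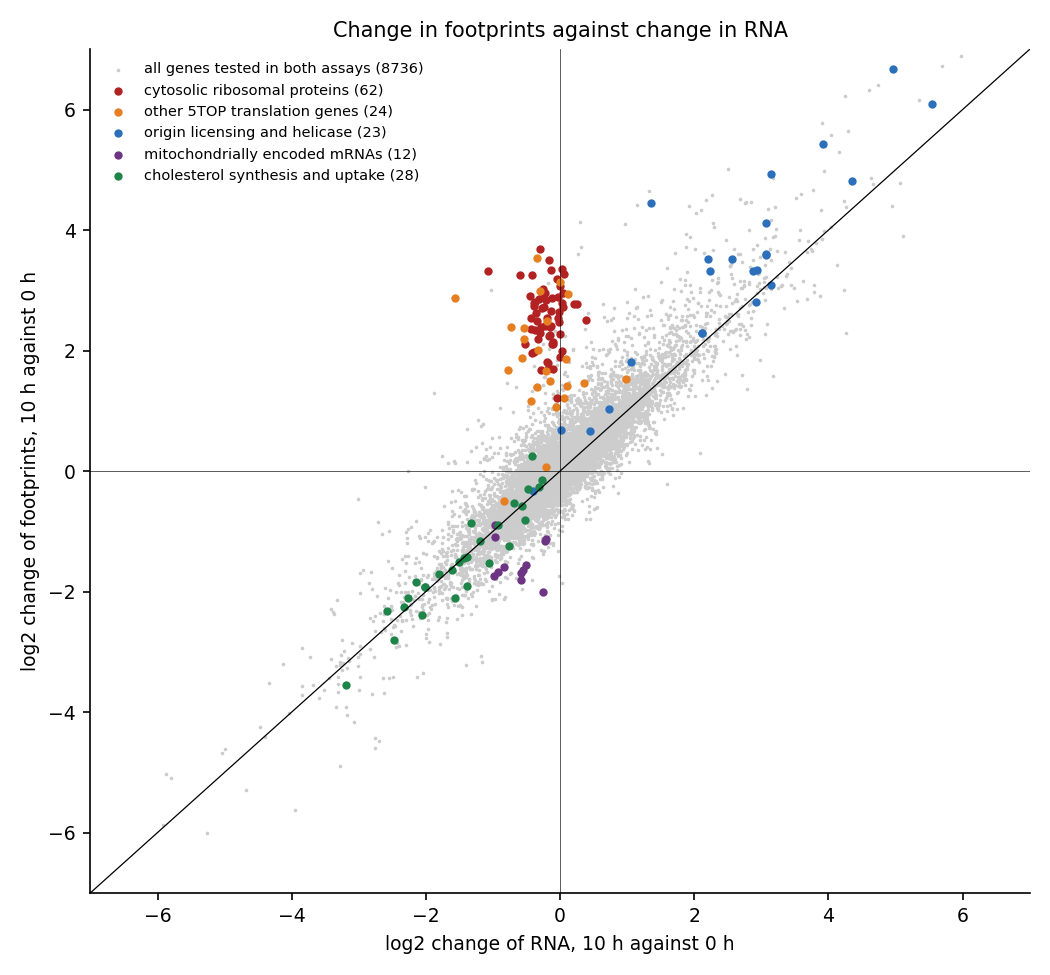
Footprint change against RNA change, both as log2 of 10 h over 0 h, with 1 point per gene tested in both assays, members of 5 gene lists in colour and a diagonal where both changes are equal. Cholesterol genes lie along the diagonal and origin licensing genes along or above it, while ribosomal protein genes stand in a column above it, with a median footprint change of 2.59 and a median RNA change of -0.18.

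The 10 steepest rises included SERPINB2, CCNE2, FAM111B, ADAMTS1, ZNF367 and CXCL8. SERPINB2, an intracellular and secreted serine protease inhibitor, had 0.888, 1.27, 1.02 and 0.974 CPM in the 4 starved libraries and 171, 136, 165 and 183 CPM at 10 h, a log2 change of 7.27 ± 0.17 (adjusted p = 3.96e-26). Cyclin E2 (CCNE2), which activates CDK2 at the start of S phase, had 0.296, 1.70, 1.19 and 0.974 CPM and then 128, 137, 137 and 123 CPM, a change of 6.89 ± 0.16. FAM111B, a protease, went from a mean of 3.54 ± 0.868 to 369 ± 23.8 CPM (SD). In each of these genes every library at 10 h was far above every starved library. ADAMTS1, a secreted metalloprotease that cleaves proteoglycans, rose from 16.3 ± 0.643 to 1173 ± 46.7 CPM, and ZNF367, a zinc finger protein, from 1.02 ± 0.230 to 50.2 ± 0.229 CPM. The chemokine CXCL8 had 4 counts in the starved group as a whole and 19.5, 18.5, 15.5 and 20.7 CPM at 10 h. It also belonged to the steepest falls between 5 h and 10 h, given below.

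The steepest falls included DDIT4, PIK3IP1 and CDKN1C. DDIT4 (ENSG00000168209), known as REDD1, which restrains mTORC1, had 179.9, 163, 177 and 210.0 CPM in starved cells and 7.33, 6.44, 4.00 and 4.64 CPM at 10 h, a change of -5.03 ± 0.16 (adjusted p = 1.08e-14). PIK3IP1, a membrane protein that binds and inhibits PI3 kinase, fell from 57.7 ± 7.24 to 1.68 ± 0.332 CPM. CDKN1C (p57), which blocks cyclin-dependent kinases, had 52.96, 54.4, 45.2 and 46.3 CPM and then 0.632, 1.43, 0.649 and 1.33 CPM. The highest library at 10 h lay far under the lowest starved library of that gene. SLC2A12, a glucose transporter, changed by -6.01 ± 0.15, TCP11L2 by -5.87 ± 0.16, periplakin (PPL), a cytolinker of cell junctions, by -5.29 ± 0.19 and KLHL24, a ubiquitin ligase adaptor, by -4.89 ± 0.15. METTL7A, MYLK2 and TMEM140 also fell, from means of 14.1, 13.4 and 19.3 CPM to 0.214, 0.289 and 0.695 CPM.

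**Figure D2:**
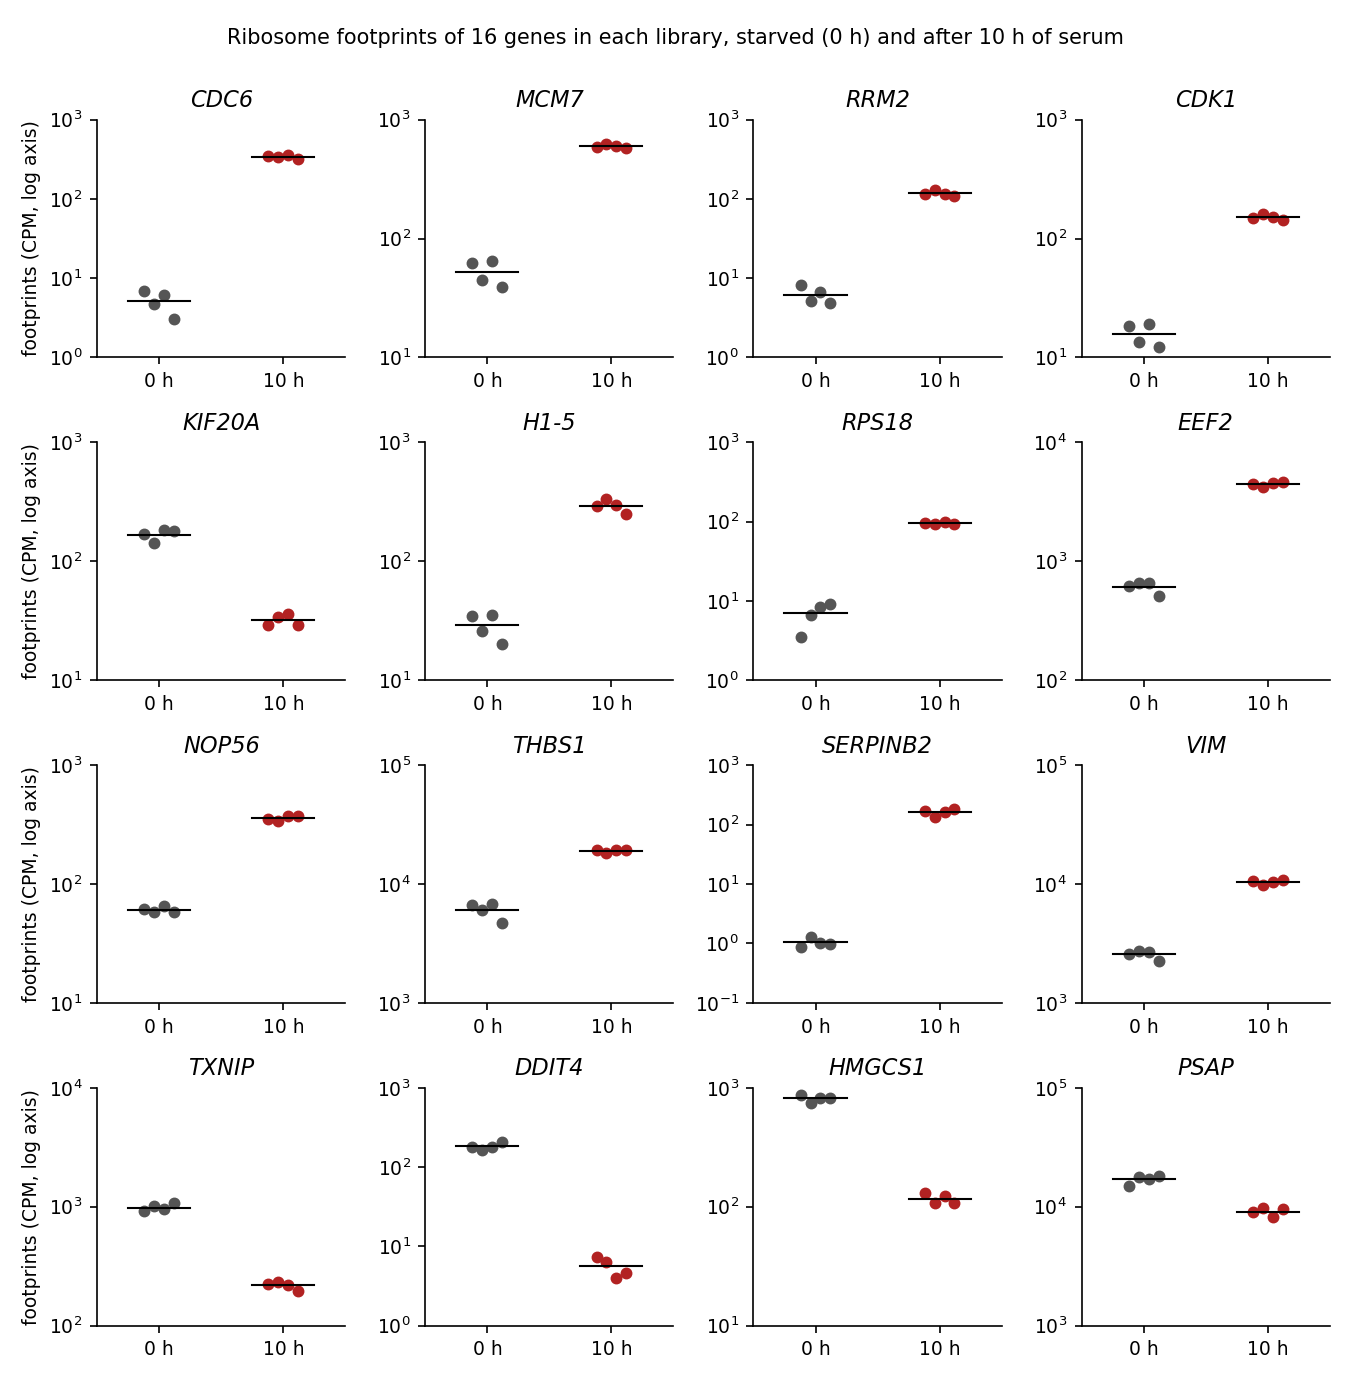
Footprints of 16 genes in each library, in CPM on a log axis, with 4 starved libraries in grey, 4 libraries at 10 h of serum in red and a bar at each mean. The 2 groups do not overlap in any of the 16 genes, and KIF20A, a mitotic kinesin, lies on the falling side with 168 CPM at 0 h and 32.2 CPM at 10 h.

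Genes that license replication origins and form the replicative helicase rose together. Of 23 tested members, 22 rose (39.4% of all genes tested were called higher) and 1 fell, with a median change of 3.34, and 20 rose past 1.5-fold (21.1% of all). CDC6 (ENSG00000094804), which loads the helicase onto origins, had 6.805, 4.67, 6.10 and 3.09 CPM in the starved libraries and 343, 341, 362 and 319 CPM at 10 h. That is a change of 6.10 ± 0.10 (adjusted p = 9.78e-35), with an RNA change of 5.54 ± 0.26 and no TE call. The 4 starved values of CDC6 differed among themselves by more than the 4 values at 10 h did, relative to their level. MCM10, an initiation factor, changed by 6.67 ± 0.16, CDC45, the helicase partner, by 5.43 ± 0.16, and ORC1, the cell-cycle regulated subunit of the origin recognition complex, by 4.93 ± 0.14. The exception was ORC4, another subunit of that complex, at 57.7, 52.9, 62.7 and 54.9 CPM and then 46.5, 48.7, 47.0 and 39.1 CPM. The 6 subunits of the helicase ring, MCM2 to MCM7, moved as a block, with changes between 3.08 and 3.59. MCM7 had 62.4, 45.0, 64.2 and 39.3 CPM before serum and 591, 623, 595 and 576 CPM after, and MCM2 43.2, 31.9, 42.7 and 30.4 CPM and then 441, 412, 428 and 407 CPM. In 23 of the 23 genes the groups did not overlap (72.0% of all genes tested).

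Promoter windows of some of these and of other S-phase genes are shown because 12 of the 20 licensing genes with a window held an E2F-type element. RefSeq promoter windows (250 bases before to 50 after the annotated start, build GRCh38.p14) were found for 20 of the 23 genes, and the element searched was TTTGGCGC, TTTGCCGC, TTTCGCGC or TTTCCCGC on either strand. The share was 6.83% among 8960 tested genes with such a window and 3.99% among all 27305 genes of the promoter table. For replication fork genes it was 10 of 25. A match describes letters in the window and was not tested as a binding site. Each line gives 30 bases of the gene's own strand, 5′ to 3′, with the matched letters in capitals. PCNA and CLSPN belong to the replication fork list, TYMS to the deoxynucleotide list and E2F1 to the cyclin and E2F list, and DTL, of the 10 steepest rises, to none of these lists. The genes were chosen after their matches were seen, and in MCM6 the capitals cover overlapping matches on both strands.
CDC6 (chr17:40287875-40287904, plus strand): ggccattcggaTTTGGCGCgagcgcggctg
DTL (chr1:212035729-212035758, plus strand): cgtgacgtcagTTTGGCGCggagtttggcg
E2F1 (chr20:33686387-33686416, minus strand): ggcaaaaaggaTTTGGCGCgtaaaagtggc
MCM3 (chr6:52284728-52284757, minus strand): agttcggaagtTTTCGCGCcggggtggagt
MCM6 (chr2:135876511-135876540, minus strand): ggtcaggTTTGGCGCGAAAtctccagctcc
MCM7 (chr7:100101388-100101417, minus strand): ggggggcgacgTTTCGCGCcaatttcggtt
PCNA (chr20:5126663-5126692, minus strand): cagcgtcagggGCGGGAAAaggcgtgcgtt
CLSPN (chr1:35769965-35769994, minus strand): actctggctggGCGGGAAAgcaagaacagc
TYMS (chr18:657603-657632, plus strand): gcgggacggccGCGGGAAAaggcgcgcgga

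Replication fork genes followed the helicase. Of 31 polymerase and fork genes, 30 rose and none fell, with a median change of 2.40 and the remaining gene, POLE4, at -0.03 ± 0.08 (adjusted p = 0.696, edgeR). PCNA, the sliding clamp that holds polymerases on DNA, had 151, 129.8, 156 and 138 CPM in the starved libraries and 1296, 1443, 1305 and 1239.6 CPM at 10 h, a change of 3.20 ± 0.07. It was about as high at 15 h (1322 ± 65.1 CPM). CLSPN (claspin), which couples the fork to the checkpoint, changed by 5.57 ± 0.11 and ATAD5, which unloads the clamp, by 5.02 ± 0.14. Within complexes the members were not equal. In polymerase epsilon, POLE2 changed by 4.50 and POLE, the catalytic subunit, by 2.26. In the clamp loader, RFC3 changed by 3.82 and RFC1 by 0.41, and in replication protein A, RPA2 changed by 2.40 and RPA3 by 0.22. Each of these rises was called. TE also rose for POLE2 (2.20 ± 0.48, adjusted p = 0.00174, edgeR) and for ATAD5 (2.37 ± 0.49, adjusted p = 8.83e-04).

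Enzymes that make deoxynucleotides divided by role. Ribonucleotide reductase converts ribonucleotides to deoxynucleotides. Its S-phase subunit RRM2 had 8.28, 5.10, 6.61 and 4.87 CPM before serum and 114, 129, 116 and 109 CPM after, a change of 4.28 ± 0.11 (adjusted p = 2.46e-29). The partner RRM1 changed by 2.39 ± 0.08. The alternative small subunit RRM2B, a p53 target used outside S phase, went the other way, from 41.4, 45.9, 41.7 and 48.2 to 15.9, 17.4, 15.9 and 12.6 CPM. Thymidylate synthase (TYMS) changed by 2.58 ± 0.07, and SAMHD1, which degrades deoxynucleotides, by -0.71 ± 0.06. RRM2 and TYMS rose more in footprints than in RNA, with TE changes of 2.13 ± 0.41 (adjusted p = 2.77e-04) and 1.36 ± 0.32 (adjusted p = 0.00348). The 2 falls of the list, against 10 rises, were RRM2B and SAMHD1.

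All 25 tested genes of homologous recombination and the Fanconi anaemia pathway, which repair broken and cross-linked DNA, rose, with a median change of 3.13. EXO1, an exonuclease that resects DNA ends, had 2.37, 2.55, 3.05 and 0.974 CPM and then 88.3, 89.9, 80.0 and 88.5 CPM, a change of 5.30 ± 0.13. XRCC2, which acts in strand exchange, changed by 4.97 ± 0.18. In all 25 genes the groups did not overlap (72.0% of all genes tested).

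Cyclins, cyclin-dependent kinases and the E2F and RB families were mostly higher, with 20 of 25 tested members rising, 3 falling and a median of 1.95. Cyclin D1 (CCND1), the growth-factor-responsive partner of CDK4 and CDK6, had 289.6, 254, 252 and 201 CPM in starved cells and 1553, 1496, 1541 and 1665 CPM at 10 h. That is a change of 2.66 ± 0.07, with a level of 1482 ± 20.1 CPM already at 5 h. CDC25A, the phosphatase that activates CDK2, changed by 4.48 ± 0.13. FBXO5 (EMI1), an inhibitor of the anaphase-promoting complex, rose from 2.92 ± 1.20 to 157 ± 5.90 CPM, more in footprints than in RNA (TE 1.74 ± 0.43, adjusted p = 0.00662, edgeR; 1.55 and 0.0504 without starved RNA replicate 4). Cyclin A2 (CCNA2) had 33.7, 19.8, 28.96 and 25.3 CPM and then 96.9, 113, 103 and 99.2 CPM. RBL2 (p130), the RB relative that holds E2F genes silent in resting cells, fell from 94.2 ± 8.04 to 40.3 ± 2.15 CPM, and TFDP2, a dimer partner of E2F, from 56.6 ± 2.51 to 15.7 ± 2.71 CPM.

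Of 7 tested inhibitors of cyclin-dependent kinases, none rose and 6 fell (39.0% of all genes tested were called lower), with a median of -1.38. Beside CDKN1C, CDKN2C (p18) had 17.2, 17.4, 19.1 and 20.95 CPM in starved cells and 1.90, 1.91, 2.05 and 2.65 CPM at 10 h, a change of -3.16 ± 0.15. Its RNA change was -1.16 ± 0.27, and its TE change of -2.09 ± 0.30 (adjusted p = 2.73e-06, edgeR) was the lowest among genes with a mean of at least 10 CPM in both assays. CDKN1A (p21) had 133, 134, 144 and 155 CPM and then 107, 101, 109 and 103 CPM, a smaller change of -0.44 ± 0.07. It rose again from 10 h to 15 h by 1.08 ± 0.06 (adjusted p = 1.10e-17). CDKN2D was not called.

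Factors that rebuild chromatin behind the fork rose in 13 of 14 cases, with a median of 2.45. UHRF1, which maintains DNA methylation, went from 10.9 ± 2.76 to 214 ± 9.81 CPM and CHAF1A, of the chromatin assembly factor CAF-1, from 10.6 ± 2.20 to 127 ± 4.25 CPM. SLBP, which binds the stem-loop that ends histone mRNAs, had 84.3, 83.3, 98.4 and 92.2 CPM and then 276, 277, 295 and 262 CPM. ASF1A, a histone chaperone, was the member called lower, by a small margin that several alternatives lost (-0.17 ± 0.06, adjusted p = 0.0185, edgeR), and its groups overlapped.

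Replication-dependent histones, which package newly made DNA, were higher in 41 of 44 tested genes, none fell, and the median change was 1.87. The linker histone H1-5 had 34.6, 25.9, 35.2 and 20.1 CPM before serum and 289.8, 337, 296 and 249 CPM at 10 h, a change of 3.36 ± 0.16 (adjusted p = 7.23e-11). H2AC16 had 7.69, 7.01, 8.47 and 4.06 CPM and then 93.3, 104, 97.9 and 84.7 CPM. At 5 h the level had been lower than in starved cells, at 13.8 ± 2.96 CPM for H1-5 and 4.30 ± 1.05 CPM for H2AC16, and it went on rising to 1665 ± 133 and 503 ± 36.1 CPM at 15 h. All 44 genes rose from 10 h to 15 h (20.8% of all genes tested were called higher). As a share of all footprints the histones went from 0.401% ± 0.0180 (SD) to 0.894% ± 0.0912, with 0.161% ± 0.0146 at 5 h and 4.25% ± 0.204 at 15 h. RNA rose in 40 of 43 genes (23.3% of all genes tested) by a median of 1.87, and TE was called in none of the 43. Histone genes are near-identical copies, and how reads shared between copies were assigned is not given in the sources used here, so the division among them is uncertain.

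Genes of G2 and mitosis were at mixed levels at 10 h relative to starved cells. Of 51 tested members, 38 rose, 7 fell and 6 were not called, with a median of 1.29. CDK1, the kinase that drives mitosis, had 18.3, 13.4, 19.1 and 12.2 CPM before serum and 149, 162, 153 and 142 CPM after, a change of 3.28 ± 0.10 (adjusted p = 8.62e-26). AURKB, the kinase of the chromosomal passenger complex, changed by 3.02 ± 0.15, UBE2C, a ubiquitin-conjugating enzyme of the anaphase-promoting complex, by 2.80 ± 0.10 and the condensin subunit NCAPH by 2.87 ± 0.10. Among the 7 that fell, KIF20A, a kinesin of cytokinesis, had 168, 143, 182 and 178 CPM in the starved libraries and 29.2, 34.2, 36.3 and 28.99 CPM at 10 h. PTTG1 (securin), which restrains the cut of sister chromatids, changed by -1.11 ± 0.12 and cyclin B1 (CCNB1) by -0.30 ± 0.09, the last with overlapping groups.

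The falls were against starved cells, and the level at 5 h was lower still. Of the 51 genes, 50 were called lower at 5 h than at 0 h and none higher, in a comparison that called 75.7% of all genes, 35.2% higher and 40.5% lower. KIF20A stood at 4.64 ± 1.93 CPM at 5 h, and CCNB1 at 34.6 ± 3.09 CPM against 184 ± 25.6 CPM at 0 h. All 51 members rose from 5 h to 10 h (31% of all genes tested were called higher), with a median of 3.65. All 51 rose again from 10 h to 15 h (20.8% of all genes tested were called higher). The list held 0.384% ± 0.0449 of all footprints in starved cells, 0.0609% ± 0.00704 after 5 h of serum, 0.619% ± 0.0552 after 10 h and 1.96% ± 0.127 after 15 h. RNA was called higher in 23 members and lower in 8 (23.3% and 21.5% of all genes tested), and TE was called higher in 15 and lower in none (5.44% and 1.8% of all).

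Promoters of this list were searched for the 6 letters TTTGAA or TTCGAA, on either strand, which are forms of the cell cycle genes homology region bound by the MuvB complex. They were present in 33 of 42 genes with a window (78.6%), against 15.8% of tested genes and 19.5% of all genes of the table, where a word this short is common. E2F-type letters were present in 2 of the 42. The windows of CDK1 and of 4 further genes chosen after their matches were seen are shown for comparison with the E2F windows, the matched letters in capitals and every line on the gene's own strand, 5′ to 3′.
CDK1 (chr10:60778158-60778187, plus strand): gagtataataaaTTTGAActgtgccaatgc
CCNB2 (chr15:59105105-59105134, plus strand): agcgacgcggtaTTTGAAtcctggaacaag
KIF11 (chr10:92593090-92593119, plus strand): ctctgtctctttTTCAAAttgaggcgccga
TOP2A (chr17:40418030-40418059, minus strand): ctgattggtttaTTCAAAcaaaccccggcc
KIF23 (chr15:69414282-69414311, plus strand): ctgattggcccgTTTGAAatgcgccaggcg

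Cytosolic ribosomal protein genes gained footprints without a called gain of mRNA. All 62 tested cytosolic ribosomal protein genes, of 79 listed, rose past 1.5-fold, with a median footprint change of 2.59. None rose in RNA, where 12 fell (21.5% of all genes tested fell) and the median was -0.18. TE was called higher in 61 of 62 (5.44% of all genes tested), with a median of 2.62 against -0.04 over all genes tested. RPS18 (ENSG00000231500), of the small subunit, had 3.55, 6.59, 8.47 and 9.26 CPM before serum and 96.3, 93.4, 99.3 and 94.4 CPM at 10 h, with a footprint change of 3.69 ± 0.12 and a TE change of 3.91 ± 0.23 (adjusted p = 1.87e-16). In RNA the same gene had 945, 591, 541 and 662 CPM and then 631, 492, 581 and 517 CPM, and those groups overlapped. RPL32, of the large subunit, had 68.0, 74.4, 76.6 and 71.8 CPM and then 569, 574, 569 and 552 CPM in footprints. The 24 small-subunit genes had a median change of 2.70 and the 37 large-subunit genes 2.54. The list took 0.492% ± 0.0212 of all footprints in starved cells, 2.12% ± 0.0356 at 5 h and 2.23% ± 0.0713 at 10 h, while its share of RNA counts was 6.60% ± 0.757 at 0 h and 5.46% ± 0.294 at 10 h. Ribosomal protein genes have many processed pseudogenes and the treatment of shared reads is not given in the sources used here, so their levels are uncertain.

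Elongation factors and other TOP genes moved in a like manner, with 22 of 24 rising and 1 falling in footprints, and 21 rising in TE. EEF2 (ENSG00000167658), which moves the ribosome along the mRNA, had 615, 658, 660.4 and 513 CPM in the starved libraries and 4465, 4227, 4534 and 4627 CPM at 10 h, a footprint change of 2.87 ± 0.07. Its RNA changed by -1.57 ± 0.21, and its TE change of 4.33 ± 0.24 (adjusted p = 4.47e-16) was the largest among genes with a mean of at least 10 CPM in both assays. The TE fit took the genes tested in both assays, with scaling within each assay and all 32 libraries fitted together. Its value is close to the difference of the separate changes and not identical to it. EEF1G changed by 3.53 ± 0.08 in footprints and 3.77 ± 0.14 in TE. TPT1, a small calcium-binding protein, had 92.3, 96.9, 94.2 and 80.7 CPM and then 809.6, 785, 832 and 770.2 CPM with no RNA change called. SLC25A6, a mitochondrial ADP/ATP carrier that is not in the list, ranked beside them with 3.001 ± 0.07 in footprints, -1.03 ± 0.18 in RNA and 3.92 ± 0.20 in TE. CCNI was the member that fell (-0.50 ± 0.05) and COX7C was not called.

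Start sites are shown to set the letters at the annotated start beside the TE calls. A cytosine at the annotated start followed by at least 4 pyrimidines was counted as a TOP-type start, and it is a looser rule than a mapped tract. It was present in 38 of 49 ribosomal protein genes with a window (77.6%) and 16 of 17 other TOP genes (94.1%), against 7.52% of tested genes and 5.14% of all genes of the table. Among genes with TE called higher it was present in 147 of 392 (37.5%), among genes with TE called lower in 5 of 119 (4.2%), and among all genes tested for TE in 567 of 7261 (7.81%). With both lists left out the shares were 96 of 329 (29.2%) for TE called higher and 513 of 7195 (7.13%) for all. Each line holds 5 bases before the annotated start and 20 from it, 5′ to 3′, with the pyrimidine run in capitals. FBL, NPM1 and IPO7 lie outside both lists, and IPO7 is one of the nuclear transport genes given below.
RPS18 (chr6:33272070-33272094, plus strand): ccgctCTCTCTTCCacaggaggcct
RPL13A (chr19:49487603-49487627, plus strand): tcctcCTTTTCCaagcggctgccga
EEF2 (chr19:3985444-3985468, minus strand): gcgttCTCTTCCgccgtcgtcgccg
EEF1A1 (chr6:73521013-73521037, minus strand): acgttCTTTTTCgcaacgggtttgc
SLC25A6 (chrX:1392094-1392118, minus strand): tccgtCCTTTCggtccaggcggcgg
FBL (chr19:39846360-39846384, minus strand): gcgctCTTTTCCacgtgcgaaagcc
NPM1 (chr5:171387844-171387868, plus strand): gcgtcCTTTCCCTggtgtgattccg
IPO7 (chr11:9384647-9384671, plus strand): tctttCCTTTCgcgccggttgccgc
For contrast, no match to the rule was found in VIM, GAPDH, HSPA8 and ADAMTS6, whose TE was also called higher. Their changes were 2.08 ± 0.15, 1.58 ± 0.12, 1.26 ± 0.16 and 3.22 ± 0.19.
VIM (chr10:17228236-17228260, plus strand): gatctgggaggcccacgtatggcgc
GAPDH (chr12:6535259-6535283, plus strand): tccctgtccggatgctgcgcctgcg
HSPA8 (chr11:123062117-123062141, minus strand): ccggtctcattgaactcgcctgcag
ADAMTS6 (chr5:65481901-65481925, minus strand): acgtcagtgtgctctgcctccgagg

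**Figure D3:**
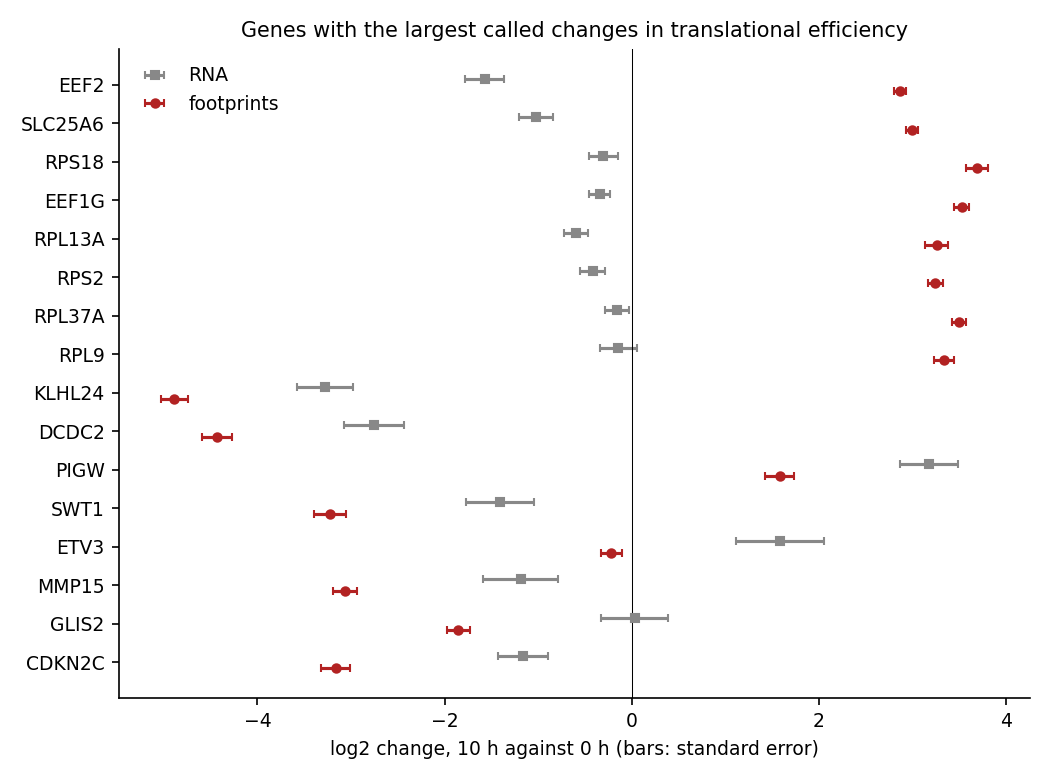
Log2 change of RNA (grey) and footprints (red) at 10 h against 0 h, with standard errors, for the 8 genes with the largest called rise and the 8 with the largest called fall of TE among genes with a mean of at least 10 CPM in both assays. EEF2 lies at -1.57 in RNA and 2.87 in footprints, and KLHL24, whose TE call was lost without RNA replicate 1 at 10 h (adjusted p = 0.131), fell in both, by -3.28 in RNA and -4.89 in footprints.

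Initiation factors outside the TOP list rose in 26 of 28 cases and fell in none, by a smaller median of 0.76. EIF4A1, the helicase that opens 5′ leaders, had 185, 170.0, 180.0 and 159 CPM and then 591, 574, 617 and 595 CPM, with a TE change of 1.05 ± 0.11 (adjusted p = 1.82e-09). EIF2S1, a subunit of the factor that brings the initiator tRNA, changed by 1.79 ± 0.06 in footprints and 1.84 ± 0.16 in RNA, with no TE call. All 11 tested subunits of eIF3, the scaffold of initiation, rose, and TE was called for 8 of them. Some of these subunits belong to the TOP list. EIF3F (2.34) and EIF3L (2.23) had the largest TE changes of the complex and EIF3B (-0.01) and EIF3J (0.07) had the smallest, which were not called.

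Negative regulators of mTORC1 and of cap-dependent initiation went down as a group, with 13 of 18 falling, 4 rising and a median of -1.13. SESN3, of the sestrin family that restrains mTORC1, had 49.999, 60.6, 55.6 and 70.5 CPM and then 2.91, 2.62, 1.51 and 2.32 CPM, and PDCD4, an inhibitor of EIF4A, 485, 471, 515 and 539.8 CPM and then 93.9, 81.1, 89.9 and 77.0 CPM. Neither pair of groups came near to overlap. The members that rose included EIF4EBP1, the eIF4E-binding protein that mTORC1 phosphorylates, at 7.99, 9.77, 9.82 and 7.80 CPM and then 34.1, 31.5, 34.7 and 27.7 CPM, and EIF4EBP2 (0.50 ± 0.09). TSC1 and TSC2, the complex that switches off RHEB, fell by smaller amounts (-0.74 and -0.47).

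Ribosome biogenesis factors, which make and assemble ribosomes in the nucleolus, rose in 63 of 63 cases, with a median of 1.70. In contrast to ribosomal proteins, RNA rose in 52 of 60 (median 1.30) and TE was called in 8. NOP56, a core protein of small nucleolar RNPs, had 61.8, 58.6, 65.7 and 57.8 CPM before serum and 352, 337, 373 and 369.6 CPM after. DDX21, a nucleolar helicase, changed by 3.04 ± 0.07 and RRS1, which recruits ribosomal RNA to the large subunit, by 3.20 ± 0.10. Of 12 genes of RNA polymerase I and its factors, 10 rose and 2 fell. POLR1E changed by 2.90 ± 0.08 with a TE change of 1.56 ± 0.19 (adjusted p = 4.86e-08), while UBTF, the activator of ribosomal DNA, fell from 176 ± 13.1 to 122 ± 7.39 CPM.

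Nuclear transport genes rose in 42 of 45 cases and fell in 3, with a median of 1.29. The importins IPO5 and IPO7, which carry ribosomal proteins and histones into the nucleus, rose in footprints by 2.54 ± 0.06 and 2.51 ± 0.06 and in RNA by 0.78 ± 0.11 and 0.76 ± 0.19. Their TE changes were 1.66 ± 0.11 and 1.64 ± 0.20 (adjusted p = 1.53e-14 and 4.50e-08, edgeR). IPO5 had 171, 186, 189 and 162 CPM and then 1044, 1028, 1035 and 1021 CPM, whereas the related IPO8 fell (-0.68 ± 0.05). NUP205, of the inner ring of the nuclear pore, changed by 2.69 ± 0.07. Among 27 hnRNP and SR splicing proteins 24 rose and 2 fell, and none was called in TE. HNRNPAB changed by 2.64 ± 0.06 and SRSF7 by 2.53 ± 0.06, and SRSF5 fell (-0.43 ± 0.07).

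Cytosolic aminoacyl-tRNA synthetases rose in 21 of 22 cases, with a median of 1.04. AIMP2, the scaffold of the multi-synthetase complex, had 27.2, 25.7, 26.3 and 21.6 CPM and then 143, 151, 152 and 157 CPM. CARS1, the cysteinyl enzyme, fell from 119 ± 4.97 to 64.4 ± 3.51 CPM after a level of 156 ± 11.5 CPM at 5 h. Of 17 targets of the stress factor ATF4, 5 rose and 9 fell (39.4% of all genes tested rose and 39.0% fell). Among them were CEBPB (-1.95 ± 0.09) and NUPR1 (-2.61 ± 0.09) on the falling side. Asparagine synthetase (ASNS, 1.63 ± 0.11) and STC2 (2.35 ± 0.07) were on the rising side. ATF4 itself had 3.25, 1.91, 1.52 and 1.62 CPM and then 2.66, 2.03, 1.84 and 2.49 CPM, with overlapping groups and no call.

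Enzymes of serine, one-carbon and nucleotide synthesis rose in 18 of 23 cases and fell in 4. CTPS1, which makes CTP, had 18.6, 16.4, 19.99 and 18.8 CPM in starved cells and 228, 227, 251 and 214 CPM at 10 h. MTHFD2, a mitochondrial folate enzyme, changed by 3.26 ± 0.09, and CAD, which starts pyrimidine synthesis, by 2.71 ± 0.08 with a TE change of 1.46 ± 0.35 (adjusted p = 0.00659). ODC1, the first enzyme of polyamine synthesis, had 123, 110.3, 118 and 114 CPM and then 612, 545, 589 and 646 CPM, and AMD1 and SRM of the same pathway changed by 2.86 ± 0.12 and 2.80 ± 0.08. SAT1, which breaks polyamines down, went from 30.8, 32.7, 37.1 and 28.3 to 9.10, 7.75, 8.22 and 8.28 CPM and fell more in footprints than in RNA (TE -1.49 ± 0.16, adjusted p = 4.98e-09). Of 16 amino acid transporters 8 rose and 5 fell (39.4% of all genes tested rose and 39.0% fell). SLC7A1 (2.16 ± 0.06) and SLC1A5 (2.14 ± 0.07) rose and SLC43A2 (-3.10 ± 0.15) fell.

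Chaperones of new proteins rose in 18 of 23 cases and fell in 3. All 8 subunits of the chaperonin CCT, which folds actin and tubulin, rose, with a median of 1.33. HSPA8, the constitutive HSP70, had 912, 885, 1019 and 790.4 CPM and then 4734, 4089, 5041 and 4560.3 CPM, and it fell again by 15 h (-0.77 ± 0.06). The proteasome moved little as a list, with 28 of 39 rising (39.4% of all genes tested rose), 7 falling and a median of 0.39. Its share of footprints was 0.904% ± 0.0191 at 0 h and 0.934% ± 0.0218 at 10 h, a difference that an exact permutation test over the 8 libraries did not call (two-sided p = 0.143). Within it, the lid subunit PSMD14 rose (1.40 ± 0.05), and the 3 inducible subunits of the immunoproteasome fell, PSMB9 from 114, 123, 111 and 133 to 42.2, 40.2, 41.0 and 44.1 CPM, PSMB10 by -1.24 ± 0.06 and PSMB8 by -0.90 ± 0.06 as log2 changes.

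Of 15 genes of coagulation and plasminogen activation, 7 rose and 3 fell (39.4% of all genes tested rose and 39.0% fell), with a median change of 0.14. THBS1, a matrix glycoprotein outside this list, had 6694, 6093, 6811 and 4731 CPM in starved libraries and 19147, 18125, 19254 and 19296 CPM at 10 h. THBS1 changed by 1.64 ± 0.09 (adjusted p = 2.96e-14). Its gain of 1.11 percentage points in share of footprints was the largest of all genes. F3, the tissue factor that starts coagulation, had 53.3, 50.6, 55.4 and 42.4 CPM and then 1308, 1318, 1371 and 1445 CPM, a change of 4.76 ± 0.08, and PLAUR, the urokinase receptor, changed by 2.64 ± 0.07. PTX3, a secreted pentraxin, changed by 3.47 ± 0.07. Levels at 5 h were higher for F3 and lower for THBS1. F3 stood at 2779 ± 223 CPM at 5 h, whereas THBS1 rose from 11939 ± 1344 CPM. Per 1000 bases of the deposited length, PSAP was the highest gene in starved cells with 11233 CPM, and VIM had 7773 at 10 h.

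Of 33 collagens and collagen-modifying enzymes, 14 rose and 14 fell, close to the shares of all genes tested (39.4% and 39.0%). LOX, which cross-links collagen, changed by 2.56 ± 0.06, COL4A1, of basement membranes, by 1.68 ± 0.07 and LOXL1 by -0.94 ± 0.11. Of 19 ADAMTS, MMP and TIMP genes 8 rose and 10 fell, again beside 39.4% and 39.0% of all genes. MMP2, a gelatinase among the most footprinted genes of starved cells, went from 6052, 6744, 6789 and 5937 to 3768, 4033, 3682 and 3971 CPM. ADAMTS6 had 3.25, 3.61, 4.91 and 4.06 CPM and then 51.5, 45.2, 51.7 and 48.9 CPM, a footprint change of 3.60 ± 0.12 with an RNA change of 0.27 ± 0.14, which was not called, and a TE change of 3.22 ± 0.19 (adjusted p = 1.51e-16). Integrins and laminins rose in 9 of 20 cases and fell in 8, near the 39.4% and 39.0% of all genes tested. ITGA2, of the collagen receptor, had 208, 239, 226 and 209 CPM, then 561, 419.6, 477 and 523 CPM, and 2732 ± 207 CPM at 5 h. ITGB4, of hemidesmosomes, fell from 66.0, 76.7, 77.2 and 59.6 to 6.45, 6.32, 6.38 and 6.63 CPM.

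**Figure D4:**
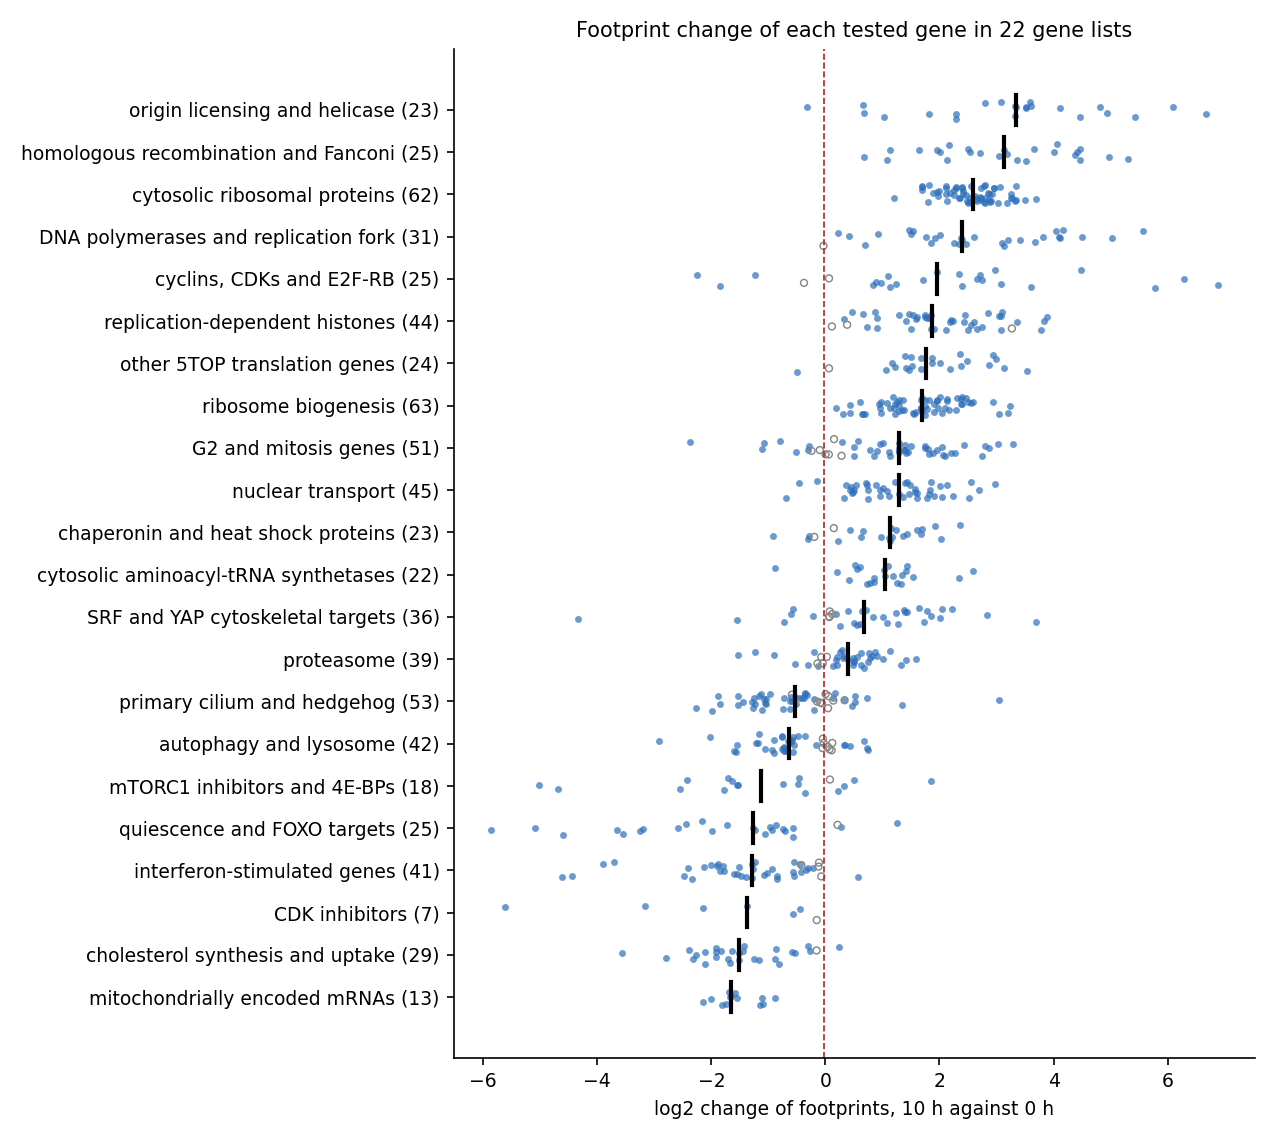
Log2 footprint changes at 10 h against 0 h of the tested members of each gene list, for 22 lists with the number tested in parentheses, with 1 point per gene (filled where called, open where not), a bar at each list median and a dashed line at the median of all genes tested. Origin licensing genes have a median of 3.34 and ribosomal proteins 2.59, at the high end, and mitochondrially encoded genes (-1.65) and cholesterol genes (-1.52) lie at the low end.

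Targets of the serum response factor SRF and of YAP, which follow actin assembly, rose in 25 of 36 cases and fell in 6, with a median of 0.68. TAGLN, an actin-bundling protein, had 46.7, 38.0, 42.9 and 41.1 CPM and then 541, 487, 585 and 545 CPM, and ANKRD1, a YAP target, 367, 309, 367 and 237 CPM and then 2312, 2139.8, 2415 and 2213 CPM. CCN1 and CCN2, matricellular proteins, changed by 2.21 ± 0.06 and 2.05 ± 0.07. ACTB and ACTG1, the cytoplasmic actins, changed by 1.38 ± 0.06 and 2.01 ± 0.06, and ACTG1 alone of the pair rose in TE (1.19 ± 0.25, adjusted p = 0.00194). The smooth muscle genes ACTA2 (-0.73 ± 0.09) and LMOD1 (-4.34 ± 0.29) fell. Vimentin (VIM), the intermediate filament of mesenchymal cells, had 2566, 2749, 2679 and 2265 CPM in starved libraries and 10680.5, 9793, 10473 and 10747 CPM at 10 h. Its RNA change was -0.16 ± 0.13 and was not called, so that its TE change was 2.08 ± 0.15 (adjusted p = 7.85e-14). Tubulin genes TUBA1B and TUBB4B changed by 2.02 ± 0.06 and 2.24 ± 0.06.

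Many early-response and inflammatory genes were lower at 10 h than at 5 h. Among 21 immediate-early transcription factors, 11 were above starved cells and 6 below, beside 39.4% and 39.0% of all genes tested. From 5 h to 10 h 15 of them fell, when 30.7% of all genes tested were called lower. FOSL1, a FOS-family partner of JUN, had 15.1, 12.7, 13.04 and 13.6 CPM and then 151, 151, 175 and 157 CPM, against 298 ± 17.1 CPM at 5 h. MYC had 38.5, 30.4, 36.8 and 37.5 CPM and then 176, 158, 175 and 167 CPM, against 240.2 ± 9.72 CPM at 5 h. JUND (-1.49 ± 0.08) fell below its starved level. Of 16 genes that feed back on ERK signalling 5 were above and 7 below starved cells, beside the same shares of all genes. From 5 h to 10 h 13 of the 16 fell. DUSP1, a phosphatase of MAP kinases, was at 16.6 ± 0.724, 152 ± 26.4 and 59.0 ± 3.48 CPM at 0, 5 and 10 h, and DUSP6 at 53.1 ± 1.20, 62.7 ± 6.89 and 23.8 ± 1.86 CPM.

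Of 20 NF-kB and cytokine genes, 11 were above and 5 below starved cells at 10 h (39.4% and 39.0% of all genes tested). Yet 18 fell from 5 h to 10 h, when 30.7% of all genes tested were called lower. CXCL8 went from 403 ± 78.0 CPM at 5 h to 18.5 ± 2.24 CPM at 10 h, a change of -4.46 ± 0.17 (adjusted p = 2.26e-11). IL6 had 1 count over the whole starved group, 80.2 ± 10.1 CPM at 5 h and 1.20 ± 0.374 CPM at 10 h, and it is given no fold against starved cells. LIF, a cytokine of the same family, had 3.25, 4.04, 6.61 and 4.38 CPM in starved libraries and 40.5, 33.5, 37.8 and 38.9 CPM at 10 h. ICAM1, an adhesion molecule, was at 36.3 ± 3.36 CPM at 5 h but fell to 4.30, 2.98, 2.92 and 4.14 CPM at 10 h, below its starved values of 12.7, 14.4, 15.6 and 9.42 CPM. The list's share of footprints was 0.0591% ± 0.00238 at 0 h, 0.154% ± 0.0157 at 5 h and 0.0453% ± 0.00198 at 10 h. PTGS2 (COX-2), which makes prostaglandins, was at 271 ± 59.3 CPM at 5 h and 10.2, 6.92, 6.81 and 15.2 CPM at 10 h. PLA2G4A, which releases arachidonate for it, had 26.3, 21.03, 30.995 and 15.6 CPM in starved cells and 215, 188, 186 and 199 CPM at 10 h. The growth factor HBEGF had 2.91 ± 0.782 CPM and then 40.3 ± 2.44 CPM, and BMP2 3.35 ± 0.478 and then 71.8 ± 8.19 CPM.

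Chaperones of the endoplasmic reticulum rose in 28 of 34 cases and fell in 4 (39.4% of all genes tested rose and 39.0% fell), with a median of 0.72. HSPA5 (BiP), the main HSP70 of that compartment, had 660.1, 698, 727 and 641 CPM and then 2042, 1989, 1906 and 2153 CPM, after 6765 ± 372 CPM at 5 h. SDF2L1 changed by 3.10 ± 0.10 and SSR3, of the translocon-associated complex, by 2.57 ± 0.06. HERPUD1, a degradation factor induced by the unfolded protein response, was at 308 ± 43.7 CPM at 5 h and fell at 10 h to 44.8, 43.9, 50.4 and 47.1 CPM, below its starved values of 86.4, 82.9, 80.3 and 78.4 CPM. From 5 h to 10 h 24 members fell and 1 rose.

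Genes of quiescence and FOXO targets fell in 22 of 25 cases, rose in 2 and had a median of -1.26. FOXO factors are held out of the nucleus by growth-factor signalling. TXNIP, which limits glucose uptake, had 912, 1008, 948 and 1066 CPM in starved libraries and 224, 233, 220.2 and 195 CPM at 10 h, but was lowest at 5 h, at 31.9 ± 5.27 CPM. PNRC1 fell from 65.1 ± 1.74 to 5.62 ± 1.27 CPM and YPEL3 from 30.1 ± 4.58 to 3.16 ± 0.841 CPM. IRS1, an adaptor of insulin receptors, rose (1.26 ± 0.09). Autophagy and lysosome genes fell in 29 of 42 cases and rose in 6 (39.0% of all genes tested fell and 39.4% rose). PSAP, the precursor of the saposins that assist sphingolipid breakdown, had 14816, 17929, 17168 and 18160.5 CPM and then 8978, 9675, 8125 and 9482 CPM, a loss from 1.99% to 0.871% of all footprints. SQSTM1, an autophagy receptor, changed by -1.57 ± 0.07, and ULK1, the kinase that starts autophagy, by -1.54 ± 0.08.

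Genes of lipid synthesis were mostly lower. Of 29 genes of cholesterol synthesis and uptake 27 fell and 1 rose, with a median of -1.52. These genes are driven by SREBP2 when sterols are low. HMGCS1 (ENSG00000112972), an early enzyme of the pathway, had 872, 746, 828 and 817 CPM in starved libraries and 130.1, 107, 123 and 108 CPM at 10 h (log2 change -2.80 ± 0.07, adjusted p = 5.09e-29). INSIG1, the sterol sensor's anchor, had 193, 188, 182 and 202 CPM and then 17.4, 16.8, 13.6 and 17.6 CPM. RNA fell in 23 of 28 members by a median of -1.41. NPC2, which exports cholesterol from lysosomes, was the member that rose (0.25 ± 0.06), a call that total-count scaling turned to -0.039. Among 19 fatty acid synthesis genes 12 fell and 5 rose (39.0% of all genes tested fell and 39.4% rose). SCD, the stearoyl desaturase, had 3295, 3755, 3364 and 4165 CPM and then 555, 595, 565 and 602 CPM, and FADS2, a polyunsaturated fatty acid desaturase, changed by -1.79 ± 0.07. ACSL4 rose (0.86 ± 0.05).

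Interferon-stimulated genes fell in 36 of 41 cases and rose in 1 (39.0% of all genes tested fell and 39.4% rose), with a median of -1.28. IFIT1, which binds foreign RNA, had 73.1, 72.0, 84.5 and 81.4 CPM in starved cells and 2.91, 3.34, 3.35 and 2.98 CPM at 10 h. IFIT3 changed by -2.41 ± 0.08 and OAS1, an RNA sensor, by -2.49 ± 0.16, whereas OAS3 rose from 50.001 ± 1.30 to 74.3 ± 3.30 CPM. Targets of p53 fell in 15 of 25 cases and rose in 6, beside the same shares of all genes. FDXR and TP53INP1 changed by -2.23 ± 0.12 and -2.85 ± 0.12, and PLK2 had 2943, 2783, 2861 and 2733 CPM, then 1476, 1514, 1378 and 1282 CPM, with 441 ± 26.7 CPM at 5 h. Among hypoxia-response genes 13 of 18 fell, again beside 39.0% of all genes, with BHLHE41 at -2.81 ± 0.08, and HIF1A rose (0.48 ± 0.05).

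Clock and cilium genes also leaned downward. Resting cells carry a primary cilium, a sensory projection that is taken down when they re-enter the cycle. Of 53 cilium and hedgehog genes 35 fell and 9 rose (39.0% of all genes tested fell and 39.4% rose). IFT81, of intraflagellar transport, had 134, 112, 132 and 141 CPM and then 40.1, 36.3, 35.5 and 32.5 CPM, and BBS12 changed by -2.28 ± 0.10. HHIP, a secreted hedgehog antagonist, was the opposite, with 239.6, 256, 262 and 227 CPM and then 1983, 1991, 1985 and 2111 CPM (log2 change 3.03 ± 0.08). The list's share of footprints went from 0.292% ± 0.00455 to 0.346% ± 0.00507, of which HHIP alone held 0.0288% and then 0.194%. Of 15 clock genes 10 fell and 4 rose, beside the same shares of all genes. DBP, an output of the clock, changed by -3.42 ± 0.17 and NR1D2, a repressor within it, by -1.26 ± 0.07, while CLOCK rose (0.92 ± 0.10).

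Mitochondrial genes separated by genome. All 13 mRNAs encoded in mitochondrial DNA fell in footprints, with a median of -1.65. MT-ND4, of complex I, had 309, 245, 176 and 189.5 CPM in the starved libraries and 86.2, 69.2, 53.6 and 62.0 CPM at 10 h (log2 change -1.74 ± 0.23, adjusted p = 9.95e-06). MT-ATP6, of ATP synthase, had 67.8, 52.5, 35.7 and 39.6 CPM and then 16.4, 13.1, 10.8 and 13.8 CPM. The starved libraries varied more here than in most lists, with shares of 0.942, 0.807, 0.528 and 0.611% of footprints against 0.237, 0.221, 0.153 and 0.192% at 10 h. RNA fell in 7 of 12. TE was called lower for MT-CO1, MT-CO2 and MT-CO3. Nuclear-encoded subunits of the respiratory chain moved little, with changes between -0.62 for UQCR10 and 0.81 for ATP5MC1. Of 63 tested, 20 rose and 25 fell, beside 39.4% and 39.0% of all genes tested. Mitochondrial ribosomal proteins rose in 46 of 65 cases and fell in 4, with a median of 0.29. MRPL15 changed by 1.48 ± 0.07.

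Of the 9 tested markers of retinal pigment epithelium none rose and 8 fell (39.0% of all genes tested fell). GPNMB had 1701, 2017, 1997 and 1870.3 CPM in starved libraries and 1007, 1086, 911 and 1084 CPM at 10 h, and OTX2, a factor that specifies the tissue, 34.3, 39.1, 37.3 and 37.7 CPM and then 12.6, 12.9, 16.9 and 12.1 CPM. MERTK, the receptor for engulfing photoreceptor debris, changed by -2.40 ± 0.17, and MITF was not called. PDGFRB and PDGFRA, receptors for a serum growth factor that are also fibroblast markers, fell from 543, 593, 552 and 632 to 47.3, 50.5, 42.8 and 45.7 CPM and from 61.8, 65.6, 63.3 and 54.6 to 13.1, 13.002, 10.1 and 12.8 CPM. The other tested fibroblast markers, THY1 and FAP, were not called. The blood marker CD68, which other cells' lysosomes also carry, was not called at 74.6, 95.8, 91.0 and 92.4 CPM and then 91.8, 97.8, 97.6 and 106 CPM.

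Summed over lists, lysosomal and lipid genes lost share of footprints while cytoskeletal, coagulation and translation genes gained it. Autophagy and lysosome genes held 3.16% ± 0.220 of footprints in starved cells and 1.45% ± 0.0931 at 10 h. Cholesterol genes went from 0.972% ± 0.0176 to 0.281% ± 0.00236. SRF and YAP targets went from 2.93% ± 0.0735 to 4.47% ± 0.114, coagulation and plasminogen activation genes from 0.632% ± 0.00673 to 2.01% ± 0.0821 and origin licensing genes from 0.0725% ± 0.00935 to 0.485% ± 0.0163. An exact two-sided permutation test over the 8 libraries cannot give a p below 0.0286 here (0.0308 adjusted over 56 lists). It gave that value for 52 lists, and did not call amino acid transporters, proteasome, glycolysis and blood cell markers. The 2 groups also did not overlap in 72.0% of single genes.

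**Figure D5:**
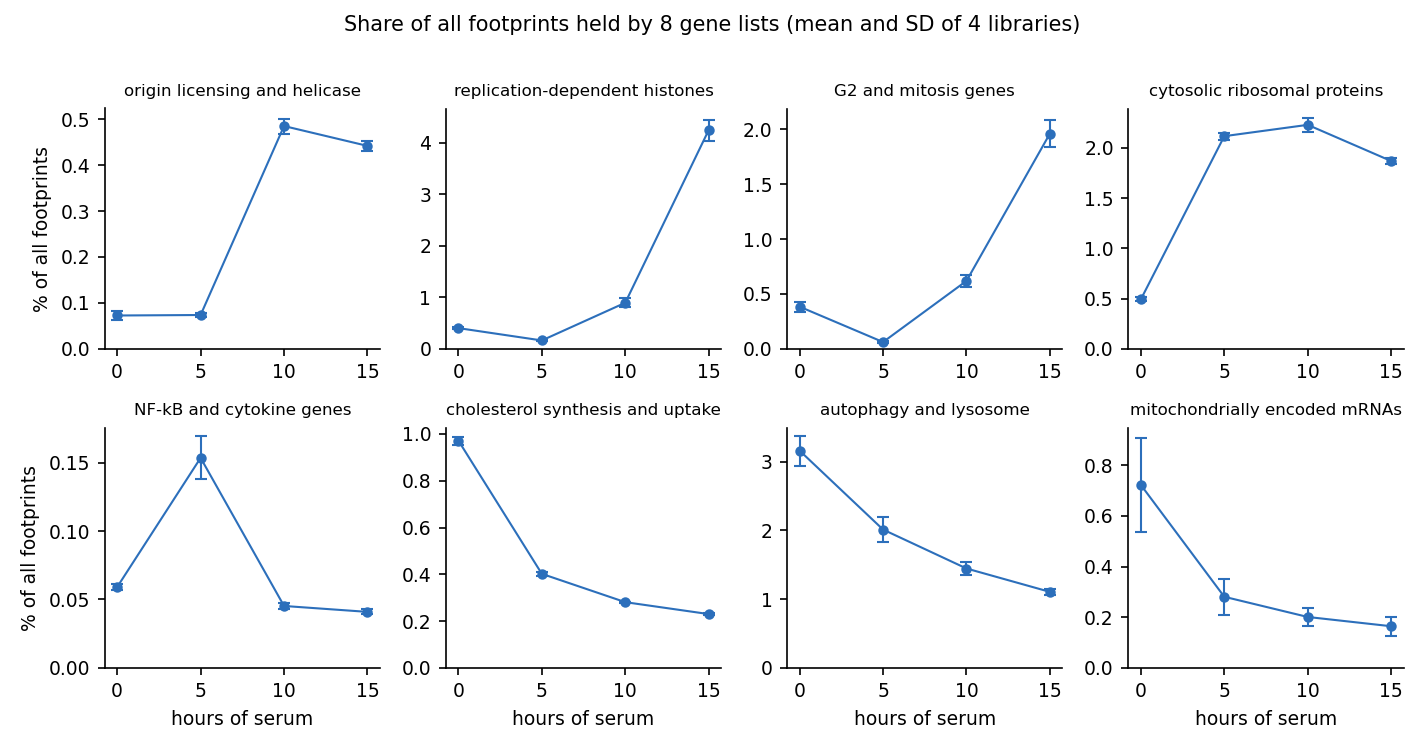
Share of all footprints, in percent, held by 8 gene lists at each time of serum in hours, as mean and SD of 4 libraries, with each panel on its own axis from 0. Ribosomal proteins are at 2.12% ± 0.0356 at 5 h and 2.23% ± 0.0713 at 10 h, while histones stand at 0.894% ± 0.0912 at 10 h and 4.25% ± 0.204 at 15 h.

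The 10 h libraries were also set against their neighbours in time. From 5 h to 10 h 6762 genes were called (61.7%), 3396 higher (31%) and 3366 lower (30.7%), and from 10 h to 15 h 4493 were called (41.0%), 2275 higher (20.8%) and 2218 lower (20.2%). These comparisons share the 10 h libraries with the comparison against starved cells. The steepest rises from 5 h were E2F8 (6.08 ± 0.25), NCAPH (5.29 ± 0.13), EXO1 (5.24 ± 0.12), KIF15 (5.17 ± 0.18) and CDC45 (5.11 ± 0.14). The steepest falls were IL6, PTGS2 (-4.85 ± 0.21), CXCL8, SHC4, an adaptor of receptor kinases (-4.31 ± 0.19), and ANGPTL4, a lipase inhibitor (-4.06 ± 0.24). From 10 h to 15 h the steepest rises were the histones H3C4 (3.83 ± 0.18), H1-3 (3.26 ± 0.09), H1-1 (2.88 ± 0.16) and H2BC3 (2.80 ± 0.07) and the kinesin KIF20A (2.88 ± 0.14). The steepest falls were BMP2 (-2.41 ± 0.14), DHRS9, a retinol dehydrogenase (-1.76 ± 0.15), ENSG00000284686 (-1.74 ± 0.10), IL33 (-1.73 ± 0.21) and GBP2, an interferon-induced GTPase (-1.57 ± 0.14). Of the 23 origin licensing genes, 6 were called higher and 6 lower at 15 h than at 10 h.

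GLIS2, a zinc finger factor of kidney and cilium, had 30.2, 28.5, 32.9 and 24.2 CPM in footprints before serum and 7.46, 8.83, 6.70 and 9.28 CPM after, with an RNA change of 0.03 ± 0.36 and a TE change of -2.01 ± 0.36 (adjusted p = 1.04e-04). MMP15, a membrane-bound metalloprotease, changed by -3.07 ± 0.13 in footprints and -1.18 ± 0.40 in RNA. ETV3, a transcriptional repressor, rose in RNA (1.59 ± 0.47) while its footprints were not called (14.8, 15.5, 17.1 and 16.4 CPM and then 15.0, 11.7, 14.7 and 13.9 CPM) under TMM scaling and were called lower under total-count scaling (-0.50). PIGW, an enzyme of GPI anchor synthesis, rose in both, less in footprints (1.58 ± 0.16) than in RNA (3.18 ± 0.31). FTL, the ferritin light chain, whose translation is controlled by iron, fell in footprints (-1.71 ± 0.12) and in TE (-1.07 ± 0.20, adjusted p = 2.44e-04). GAPDH, often used as a reference gene, rose in footprints from 1276, 1251, 1295 and 1194 to 2533, 2352, 2519 and 2501 CPM but fell in RNA (-0.71 ± 0.11).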

How the data were processed

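Ribosome footprints and total RNA depleted of ribosomal RNA were sequenced from human RPE-1 cells starved for 18 h and given serum for 0, 5, 10 or 15 h, with 4 biological replicates per assay and time, per the labels. The labels do not tie replicates to separate cultures, so p-values measure the spread between these samples, which may be partly technical. The authors deposited 1 table of raw counts per gene for 19023 Ensembl genes and 32 libraries. STAR 2.5.4a, featureCounts 1.5.1 and GRCh38 are named in the submitters' processing notes, and how shared reads were counted is not given in the sources used here. Symbols were found for 18905 genes, all table columns were matched to samples, no row lacked a gene name, and 2193 genes had no count. Deposited gene lengths were multiples of 3 in 96.46% of genes. Exceptions included ACTB (434 bases) and ACTG1 (587 bases), and some lengths were short, such as 150 bases for RRM1. Whether the lengths cover the whole coding sequence of each gene was not tested. Levels per base of deposited length are therefore uncertain.

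Each assay was fitted in edgeR 4.0.16 (R 4.3.3, limma 3.58.1) with TMM scaling, filterByExpr by group and robust quasi-likelihood F tests over its 16 libraries, with Benjamini-Hochberg adjusted p-values over the whole table and a threshold of 0.05. glmTreat tested against 1.5-fold, and TE was the assay-by-time interaction over 32 libraries. Tested on simulated data for the footprint comparison over 10697 genes, 92.5% of genes changed 1.5-fold were called, against 14.1% in the RNA comparison over 8545 genes. Few genes were changed in the simulation (67 by 1.5-fold in footprints and 64 in RNA), while most footprint genes were called in the data. The adjustment is stricter where fewer genes change, so the shares recovered may be lower than in the data. Total counts of 632023 to 1107470 in RNA and 2851423 to 9604881 in footprints limit the precision of low genes.

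Genes named in the text were those with the largest called changes, gains of share and TE changes, up to 4 leading called members and 2 opposite ones of each list with a mean of at least 10 CPM in a group, and a short list of well-known genes. Members named of complexes (such as eIF3 and replication protein A) and the shown promoter windows were chosen after their values were seen. The gene lists and members were chosen with earlier results of these data known. Alternatives were other scalings (RLE, upper quartile, total count), filters, DESeq2 1.42.0, the replicate number as a block and the compared groups alone. Further ones were each replicate left out, thinning to the shallowest library and shares with sets of genes left out. Promoter windows came from a RefSeq table of GRCh38.p14 and were matched by symbol for 8960 tested genes. Lists and figures were made with Python 3.11.15, pandas 2.3.3, scipy 1.17.1 and matplotlib 3.10.9.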

Additional observations from a re-analysis of the deposited data

Results flagged for a closer look

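In 416 groups of 4 libraries examined, of single genes and of list shares, 18 held 1 library far from the other 3 by Dixon's criterion. Chance gives about 1 in 20 such groups. At 0 h, replicate 2 was apart with 22.5 CPM for ATP5MC1 (others 28.99 to 30.3) and 260.1 CPM for CCNI (others 215 to 222), replicate 3 with 2.20 CPM for CDC45 and 0.169 CPM for IL6 (others 0), replicate 1 with 11.2 CPM for ENSG00000284686 and replicate 4 with 16.7 CPM for MYLK2. At 10 h, replicate 2 was apart in 5 of the 18, with 15.0 CPM for H1-3 (others 9.40 to 10.1), 41.4 CPM for PTTG1 (others 31.5 to 33.0), 65.0 CPM for RRS1, 18125 CPM for THBS1 (others 19147 to 19296) and 4.30% of footprints for SRF and YAP targets. At 10 h, replicate 3 was apart with 80.0 CPM for EXO1, 16.9 CPM for OTX2 and 10.1 CPM for PDGFRA. Replicate 1 was apart at 10 h with 1031 CPM for HIF1A and 5.31 CPM for SLC43A2, and replicate 4 with 2111 CPM for HHIP and 51.4 CPM for SDF2L1. The direction and side of the threshold of these genes at 10 h against 0 h were the same without each of these libraries.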

How the results depend on the processing

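Counts of called genes stayed within 1.5 times under the alternatives run, with 2 exceptions. With a minimum of 2-fold in place of 1.5-fold, 2532 genes were called past the minimum. With the replicate number as a block, TE was called in 1018 genes (670 higher, 348 lower) in place of 632. The other counts under the replicate block were 8638 for footprints at 10 h against 0 h, 4514 past 1.5-fold, 6847 for 10 h against 5 h, 4624 for 15 h against 10 h and 4654 for RNA. The replicate numbers were not taken to pair the samples. Correlations of deviations between same-numbered footprint libraries at 0 h and 10 h were 0.010, -0.006, 0.133 and -0.017. In 1 of 4 pairs the libraries correlated best with their own number. That check covered footprints alone, and pairing among RNA libraries or between RNA and footprints was not examined. In RNA the block gave 4654 genes in place of 3929, so the RNA and TE counts depend more on this choice. Leaving out each replicate in turn gave 8369 to 8597 genes for footprints, 4401 to 4553 past 1.5-fold, 6391 to 6634 for 10 h against 5 h, 3918 to 4380 for 15 h against 10 h, 3410 to 3879 for RNA and 548 to 698 for TE. DESeq2 gave 8352, 6352, 3949, 3752 and 825 genes for footprints at 10 h against 0 h, 10 h against 5 h, 15 h against 10 h, RNA and TE. Thinning to the shallowest library gave 7627 genes and 3931 past 1.5-fold. Scaling moved the split of higher and lower genes. Past 1.5-fold it was 1843 and 2856 with upper-quartile and 1638 and 3280 with total-count scaling, and for TE 375 and 337 with total-count scaling. For 10 h against 5 h upper-quartile scaling gave 2725 and 4225, and for 15 h against 10 h it gave 1753 and 2816, with 1696 and 2881 under total-count scaling. Total-count scaling reversed CD68 (-0.15), ERBIN (-0.015) and NPC2 (-0.039). The 20 genes of highest mean share were also left out of both the list sums and the total. Any of them in a list, such as MMP2, then no longer counted in it. The share of integrins and laminins then changed by -0.121 percentage points (reversed). Amino acid transporters changed by 0.0577 and proteasome genes by 0.0458 (both then called). ADAMTS, MMP and TIMP genes changed by -0.0105 (no longer called, exact permutation p = 0.343). A list share under this setting can change through single members of high share that left its sum and through the smaller total. These were not tested apart. Of 5947 footprint results of 350 named genes under alternatives, 5927 kept their direction and side of the threshold, as did 1542 of 1631 TE results of 68 genes. RNA depth limits TE, and a change of 1.5-fold in TE was called in 22.4% of such genes in simulated data over 8512 genes. Few genes were changed there (67 by 1.5-fold), so this share may be lower than in the data.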
